A study of Mus musculus with 6 samples.

Results

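Serum amyloid A, haptoglobin, hemopexin, the pentraxins, lipocalin 2 and lipopolysaccharide binding protein are plasma proteins of the acute phase response, and their transcripts were compared here between the livers of 2 inbred mouse strains. The members are the 10 genes Saa1, Saa2, Saa3, Saa4, Hp, Hpx, Apcs, Crp, Lcn2 and Lbp, taken as every array probe set whose platform gene symbol is one of these names. All 10 were measured, through 13 probe sets, among 18193 genes and 45037 probe sets in all. The groups were 3 female SM/J mice (SM) and 3 female NZB/BinJ mice (NZB), the latter an inbred strain best known for spontaneous autoimmune hemolytic anemia. All 6 animals were 8 weeks old and untreated, had been weaned onto chow at 3 weeks, went 4 hours without food and were perfused with 50 mL of phosphate-buffered saline before the tissue was frozen. RNA of each liver was hybridised to 1 array, and the labels call the animals of a strain biological replicates.

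The acute phase response is the change in plasma proteins that follows infection or injury. Macrophage cytokines, chiefly interleukin 6 and interleukin 1, act on hepatocytes through STAT3, NF-kappaB and C/EBP factors, and the liver then secretes more of the positive acute phase proteins and less of the negative ones such as albumin. Members of the pathway differ between species: serum amyloid P, the product of Apcs, is the pentraxin that rises in mice, while C-reactive protein is the one used clinically in humans. The mice here were untreated, and whether any of them had an ongoing acute phase response was not tested.

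Pairs of arrays from 1 strain had a Pearson's r of 0.995 to 0.997 over all probe sets, and pairs from both strains 0.985 to 0.987, where probe sets do not count as replicates. The array of SM replicate 2 stood apart in Xist, the RNA of the inactive X chromosome, at 7.32 against 12.61 to 12.91 in the other 5 arrays, although its label gives a female, so values without it are given for the genes named as called that lose their call. Readings of the 9 probe sets for Y-linked genes did not exceed 5.67 in any array, and the lowest reading of any member probe set was 7.38. Of 7 measured hepatocyte markers, 5 did not pass the test. Tyrosine aminotransferase (Tat) was lower in NZB and the fatty acid binding protein gene Fabp1 higher. The call of Fabp1 ended in 9 of 14 settings (limma adjusted p of 0.0516 to 0.102), among them the replicate block (0.0615) and leaving out SM replicate 2 (0.081), and its other probe set did not pass. Albumin (Alb) and transthyretin (Ttr), which define hepatocytes, read at least 14.52 on the log2 scale in each array. In whole liver, fewer cells of a type and less RNA per cell cannot be told apart. Levels of different probe sets are not comparable with each other, since each probe set binds with its own strength.

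Of the 10 members, 3 passed the test, all of them higher in NZB, and 7 did not. They were Apcs by 2.42-fold, Saa3 by 1.54-fold and Hpx by 1.18-fold. Values are log2 expression, differences are NZB minus SM with the standard error (SE) of limma's fit, and a gene is called where its Benjamini-Hochberg adjusted p over all genes was under 0.05. The share of members called was 30%, against 21.0% of all genes tested (8.47% higher and 12.6% lower in NZB), so the count of calls lay near the background. At an unadjusted p under 0.05 the members numbered 5, among them Saa2 and Lcn2, which failed the correction. The 3 NZB arrays lay wholly above the 3 SM arrays for 4 members, Apcs, Saa3, Hpx and Crp, and wholly below them for 0 members, where 39.4% of all genes did not overlap between strains. The median difference of the members was 0.18, beside 0.021 over all genes. Of the 10 differences 8 were positive, a count whose share over all genes is not given here. The sign of Hp turned in 2 settings and that of Saa4 in 1, and the probe sets of Saa1 and Saa2 are not independent. Apcs alone of the 10 reached 2-fold, and 99.1% of all genes had a smaller difference in either direction. With 1 array left out the members called numbered 2 to 4, with 2 called, Apcs and Hpx, without SM replicate 2.

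**Figure D1:**
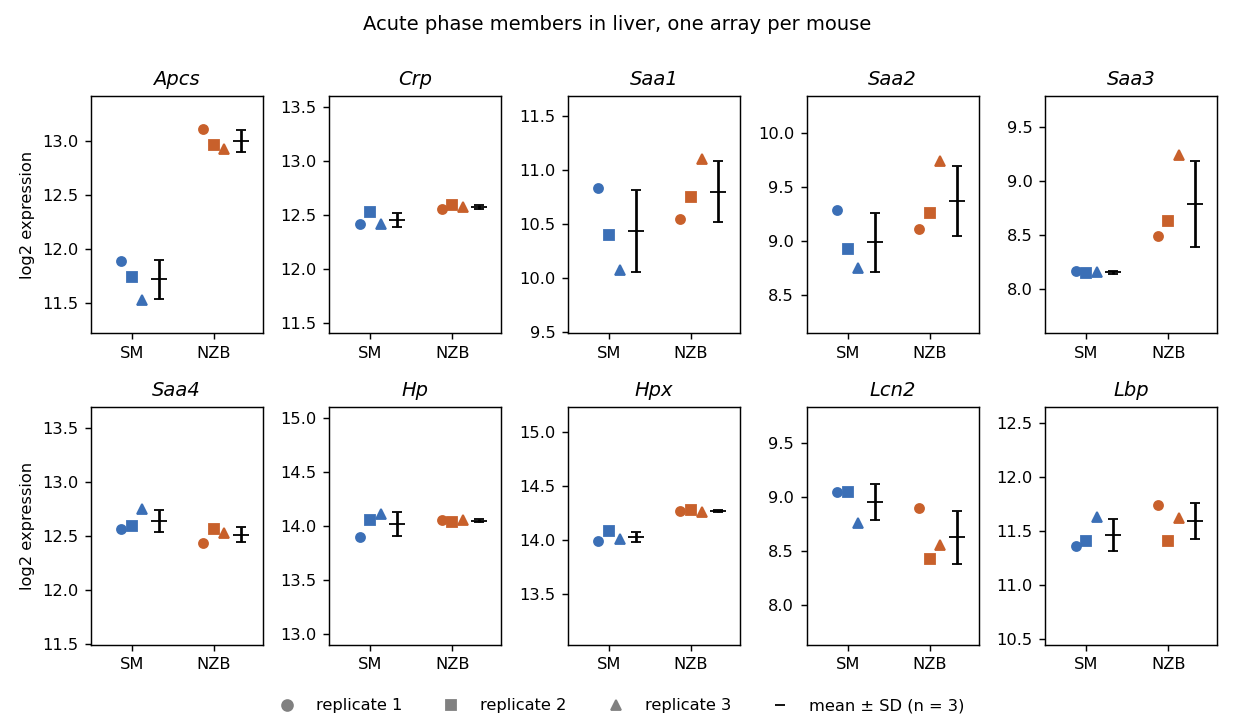
Log2 expression of each member gene (1 panel per gene, y axes of equal span but different position) in 3 SM and 3 NZB mice, with replicate numbers by symbol shape and the mean ± SD (n = 3) beside the points. The NZB points of Apcs, at 12.92 to 13.11, lie above all SM points, at 11.52 to 11.89, while those of Saa1, Saa2, Lbp and Hp overlap with SM.

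The pentraxins are ring-shaped pattern recognition proteins of the plasma that bind microbial surfaces and cell debris. Apcs, the serum amyloid P component, read 11.89, 11.74 and 11.52 in SM replicates 1, 2 and 3 and 13.11, 12.95 and 12.92 in NZB replicates 1, 2 and 3. The strains did not overlap, and the gap between the nearest mice was wider than the range within either strain. The difference was 1.28 (SE 0.096, limma adjusted p = 3.88e-05), which is 2.42-fold with a 95% confidence interval of 2.08 to 2.82. It was called under all 14 alternative settings of the processing, with differences of 1.18 to 1.36. Apcs was read by 1 probe set, neither dim nor marked as cross-binding. The settings that average probe sets or drop dim or cross-binding ones therefore refitted the same Apcs values. Crp, the C-reactive protein gene and the measured gene next to Apcs on chromosome 1, read 12.42, 12.53 and 12.41 in SM and 12.56, 12.60 and 12.57 in NZB. Each NZB mouse was above each SM mouse, yet the difference of 0.12 (SE 0.061, limma adjusted p = 0.192) did not pass, and its interval of -0.015 to 0.26 lies wholly under that of Apcs.

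Promoter sequence was available for 8 members, all but Hp and Lbp, as the 250 bases before the annotated start (RefSeq, build GRCm38.p6, a C57BL/6J reference and neither of the strains measured). These windows were searched on both strands for TTCNNNGAA (STAT factors), GGNNTTTCC (NF-kappaB), TTNNGNAAT (C/EBP factors) and TATAAA. In all 32851 promoters of that length, 7.02% held the first, 4.93% the second, 10.2% the third and 12.4% the fourth. The STAT letters occurred in 1 of the 8 members, Apcs, the NF-kappaB letters in Saa3 alone, the C/EBP letters in Crp, Saa1 and Saa2, and TATAAA in Crp. The promoters of the member with the widest difference and of the 3 serum amyloid genes that lay highest in the same NZB mouse are shown 5′ to 3′ along the gene, with the matched letters in capitals. No matches overlapped one another. A match is a description of letters and not evidence of binding.
Apcs, chr1:172895055-172895304, minus strand: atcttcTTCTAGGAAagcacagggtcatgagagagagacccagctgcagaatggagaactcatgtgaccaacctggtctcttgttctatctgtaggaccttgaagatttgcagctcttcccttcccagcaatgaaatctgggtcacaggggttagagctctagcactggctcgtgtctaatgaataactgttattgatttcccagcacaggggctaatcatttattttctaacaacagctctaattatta
Saa1, chr7:46742981-46743230, minus strand: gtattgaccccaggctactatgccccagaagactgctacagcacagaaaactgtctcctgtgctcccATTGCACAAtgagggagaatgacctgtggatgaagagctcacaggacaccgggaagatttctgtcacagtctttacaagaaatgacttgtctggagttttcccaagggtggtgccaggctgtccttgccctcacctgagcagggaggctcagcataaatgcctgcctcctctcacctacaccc
Saa2, chr7:46751583-46751832, plus strand: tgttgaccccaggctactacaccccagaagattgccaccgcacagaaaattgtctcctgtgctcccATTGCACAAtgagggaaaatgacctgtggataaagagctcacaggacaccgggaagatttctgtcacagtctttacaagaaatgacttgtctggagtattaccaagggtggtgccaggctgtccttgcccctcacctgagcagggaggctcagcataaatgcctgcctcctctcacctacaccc
Saa3, chr7:46715677-46715926, minus strand: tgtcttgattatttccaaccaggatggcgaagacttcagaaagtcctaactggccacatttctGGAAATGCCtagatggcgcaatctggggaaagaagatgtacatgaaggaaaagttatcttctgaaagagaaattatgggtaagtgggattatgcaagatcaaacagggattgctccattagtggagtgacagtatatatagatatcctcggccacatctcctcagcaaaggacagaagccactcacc
The capitals mark the STAT letters in Apcs, the C/EBP letters on the other strand in Saa1 and Saa2, and the NF-kappaB letters on the other strand in Saa3. The C/EBP match starts 183 bases before the start of Saa1 and 184 before that of Saa2. Global alignment gave 238 identical positions of 251 between the Saa1 and Saa2 windows, or 94.8%. The other pairs among the 4 serum amyloid promoters were identical at 46.8% to 52.4% of aligned positions.

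The serum amyloid A genes stand side by side on chromosome 7, in the order Saa3, Saa4, Saa1 and Saa2. Saa1 and Saa2 encode the inducible apolipoproteins that ride on HDL in the acute phase, Saa3 is a form made largely outside hepatocytes, by macrophages and fat cells among others, and Saa4 is made constitutively. Saa3 read 8.17, 8.14 and 8.15 in the SM mice and 8.49, 8.62 and 9.23 in the NZB mice. The SM mice were nearly alike, with an SD of 0.014, and NZB replicate 3 stood well above the other two NZB mice. The difference was 0.63 (SE 0.16, limma adjusted p = 0.0223), or 1.54-fold with an interval of 1.20 to 1.98. Without SM replicate 2, the array apart in Xist, the call ended (limma adjusted p = 0.0725) with a difference of 0.62. Without NZB replicate 3 the gene was still called, at a smaller difference of 0.40 (limma adjusted p = 0.0111).

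Saa1, by its brighter probe set, read 10.84, 10.40 and 10.08 in SM and 10.54, 10.75 and 11.11 in NZB. Those ranges overlap, since SM replicate 1 exceeded both NZB replicate 1 and NZB replicate 2. The difference was 0.36 (SE 0.19, limma adjusted p = 0.209), with an interval of -0.062 to 0.79. Leaving out SM replicate 1 brought the gene past the threshold, at 0.56 (limma adjusted p = 0.0428), and leaving out SM replicate 3 or NZB replicate 3 lowered the difference to 0.18 and 0.21. Saa2 read 9.29, 8.92 and 8.75 in SM and 9.11, 9.26 and 9.74 in NZB, in the same order of mice as Saa1 within each strain. It differed by 0.38 (SE 0.17, limma adjusted p = 0.143), with an interval of 0.0022 to 0.77, and by 0.20 without NZB replicate 3. The dimmer probe set paired with Saa1 read 10.29, 9.68 and 9.60 in SM and 10.005, 10.23 and 10.62 in NZB. Its representative accession belongs to Saa2 in the RefSeq table, and its name marks it as able to bind transcripts of several genes, as does that of the Saa2 probe set. The 3 probe sets of Saa1 and Saa2 are therefore not independent measurements of separate genes.

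The probe sets of Saa4 disagree in sign, as do those of Lbp. The brighter one read 12.57, 12.59 and 12.75 in SM and 12.44, 12.57 and 12.53 in NZB, a difference of -0.12 (SE 0.072, limma adjusted p = 0.26) with overlapping strains. The dimmer one read 10.58, 10.70 and 10.24 in SM and 10.95, 10.87 and 10.84 in NZB. There every NZB mouse lay above every SM mouse, and the difference of 0.38 fell just short in the fit over all probe sets (SE 0.11, limma adjusted p = 0.0508). It passed in 5 other settings, at adjusted p-values of 0.0264 to 0.0447. With the mean of both probe sets Saa4 differed by 0.13 (limma adjusted p = 0.141), so no direction is given for the gene. Of the 13 member probe sets 3 passed, all higher in NZB, at 14.8% called among all probe sets, and these were the probe sets of Apcs, Saa3 and Hpx. Without SM replicate 3 the member probe sets called numbered 1, that of Apcs.

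**Figure D2:**
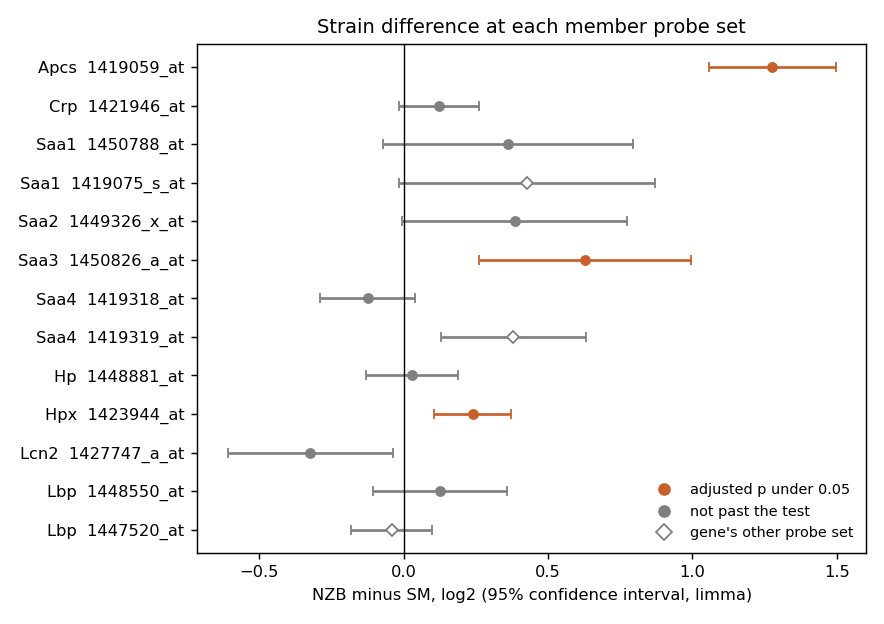
Difference between strains (NZB minus SM, log2, x axis) at each of the 13 member probe sets, with 95% confidence intervals from limma's fit over all probe sets. The intervals of Apcs, Saa3 and Hpx, in orange, lie above 0 with an adjusted p under 0.05, and the probe sets of Saa4 fall on opposite sides of 0.

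Haptoglobin and hemopexin bind what red cells release: haptoglobin takes up free hemoglobin, and hemopexin takes up heme. Hpx read 13.99, 14.08 and 14.01 in SM and 14.27, 14.28 and 14.26 in NZB. Every NZB mouse was above every SM mouse, and the NZB mice lay within 0.018 of each other. The difference was 0.24 (SE 0.059, limma adjusted p = 0.0186), or 1.18-fold with an interval of 1.08 to 1.29. Its call ended without SM replicate 1 (limma adjusted p = 0.0518) and without NZB replicate 1, 2 or 3 (0.0516, 0.0569 and 0.0560), at differences of 0.22 to 0.25. Hp, by contrast, read 13.89, 14.06 and 14.11 in SM and 14.06, 14.03 and 14.06 in NZB, with the NZB mice inside the SM range. It differed by 0.029 (SE 0.070, limma adjusted p = 0.812), with an interval of -0.13 to 0.19, and the sign turned when array medians were aligned (-0.0034) and without SM replicate 1 (-0.034). Both genes read close to the highest value of any probe set, 14.9, and whether saturation narrowed their differences was not tested.

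Among the genes that handle these complexes, the heme oxygenase gene Hmox1, which breaks down heme, read 8.79, 9.51 and 9.44 in SM and 8.37, 8.41 and 8.27 in NZB. It was 1.86-fold lower in NZB (-0.89, SE 0.16, limma adjusted p = 0.00460), opposite in direction to Hpx. Cd163, the macrophage receptor for haptoglobin bound to hemoglobin, differed by 0.081 (SE 0.12, limma adjusted p = 0.688). Lrp1, the receptor that clears hemopexin bound to heme, differed by -0.18 (SE 0.060, limma adjusted p = 0.0556) and did not pass. Of 3 measured erythroid markers, Alas2 was lower in NZB (-1.09, SE 0.26, limma adjusted p = 0.0151), Slc4a1, the gene of a red cell anion exchanger, differed by 0.10 (SE 0.069, limma adjusted p = 0.332), and Hba-a1, a hemoglobin gene, differed by 0.073 and read under the highest Y-linked value in all arrays. Probe sets shared by several genes were not used, and the listed hemoglobin gene Hbb-bs was not measured. The level of hemoglobin RNA in these livers is therefore not given by the Hba-a1 reading. The call of Alas2 ended with trended and robust variances (0.0955) and without NZB replicate 1 (0.0507) or NZB replicate 3 (0.0597). The summed level of the 3 (2 to the power of log2 expression), made up mostly of Alas2, was 501 to 829 in SM and 275 to 429 in NZB, and its part in the values of Hp, Hpx and Hmox1 was not tested.

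Lipocalin 2 starves bacteria of iron by binding their siderophores, and lipopolysaccharide binding protein hands bacterial endotoxin to CD14. Lcn2 read 9.05, 9.05 and 8.76 in SM and 8.90, 8.43 and 8.56 in NZB. NZB replicate 1 lay above SM replicate 3, so the strains overlapped. The difference of -0.32 (SE 0.13, limma adjusted p = 0.101), with an interval of -0.61 to -0.041, did not pass over all arrays. It passed without SM replicate 3 (-0.42, limma adjusted p = 0.0437), without NZB replicate 1 (-0.46, 0.0217) and with array weights (-0.37, 0.0422). Lcn2 thus had the opposite sign to Apcs, Saa3 and Hpx. Lbp read 11.36, 11.41 and 11.63 in SM and 11.74, 11.41 and 11.62 in NZB, a difference of 0.13 (SE 0.101, limma adjusted p = 0.416) with an interval of -0.10 to 0.35. The difference was 0.050 without NZB replicate 1, 0.072 without SM replicate 1, 0.21 without SM replicate 3, 0.22 without NZB replicate 2 and 0.042 with the mean of both probe sets, and did not pass in any of these. The dimmer probe set of Lbp read 7.38 to 7.51 over all 6 mice and differed by -0.041 (SE 0.062).

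The order of the mice within a strain differed among the members. SM replicate 1 was the highest SM mouse for Saa1, Saa2, Saa3 and Apcs and the lowest for Saa4, Hp, Hpx and Lbp, and NZB replicate 3 was the highest NZB mouse for Saa1, Saa2 and Saa3. The range within a strain reached 0.76 for Saa1 in SM and 0.74 for Saa3 in NZB but was 0.027 for Saa3 in SM, while the median range over the 10 members was 0.24 in SM and 0.26 in NZB. Over all members no mouse was always highest: SM replicates 1, 2 and 3 were highest for 4, 3 and 3 members, and NZB replicates 1, 2 and 3 for 4, 3 and 3. They were lowest for 4, 1 and 5 members in SM and for 5, 3 and 2 in NZB. The orosomucoids, a further family of acute phase glycoproteins, were also highest in SM replicate 1 among SM mice. Orm1 read 11.37, 9.81 and 9.92 in SM, Orm2 7.58, 6.94 and 6.76, and Orm3 7.91, 7.35 and 7.14. In NZB the same 3 genes did not follow the serum amyloids: Orm2 and Orm3 were lowest in NZB replicate 3, at 8.24 and 8.10, and Orm1 read 13.29 to 13.32 in all 3 mice. The orosomucoids were set beside the serum amyloids after their values were seen.

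**Figure D3:**
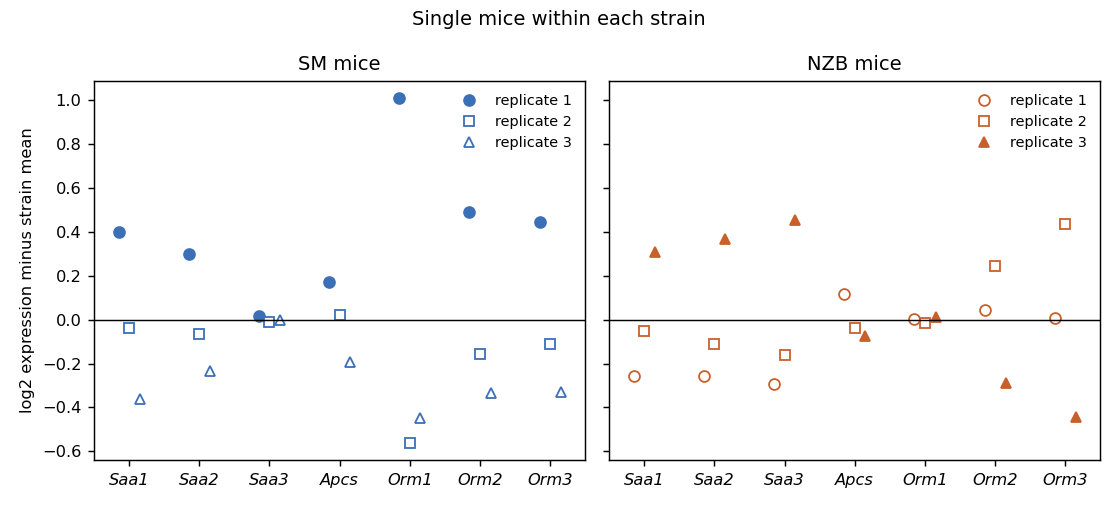
Log2 expression of each mouse minus the mean of its strain (y axis) for 4 members and the 3 orosomucoid genes (x axis), with SM mice on the left, NZB mice on the right and SM replicate 1 and NZB replicate 3 as filled symbols. SM replicate 1 lies highest among SM mice in all 7 genes, and NZB replicate 3 lies highest in Saa1, Saa2 and Saa3 but lowest in Orm2 and Orm3.

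Related genes were read from lists of the same pathway. Of 21 measured genes for other positive acute phase plasma proteins, 8 passed as higher in NZB and 1 as lower. That is 42.9% called, beside 21.0% of all genes, with a median difference of 0.18. Orm1 had the widest difference of them (2.94, SE 0.34, limma adjusted p = 0.000419), followed by Orm2 (1.43, SE 0.20) and Orm3 (1.08, SE 0.23). The members of that family are close copies that one probe set can read together, and the call of Orm3 ended with trended and robust variances (limma adjusted p = 0.0665). The other higher genes were Fgl1 (1.08, SE 0.065, limma adjusted p = 1.14e-05), which encodes a fibrinogen-like hepatokine, the complement genes C9 and Cfb, the lectin gene Mbl1 and the inter-alpha-trypsin inhibitor chain gene Itih3. These differed by 0.95 for C9, 0.57 for Mbl1, 0.49 for Itih3 and 0.29 for Cfb. Hamp, the gene of the iron hormone hepcidin, was lower (-0.43, SE 0.11, limma adjusted p = 0.0216), and its call ended without SM replicate 2 (0.0621) or SM replicate 3 (0.0521). The fibrinogen chains Fga, Fgb and Fgg differed by 0.19, 0.16 and 0.18 and did not pass. Of the 12 genes of the list that did not pass, the NZB mice lay wholly above the SM mice for 6, the fibrinogen chains among them, wholly below for 3 (Serpina3n, Fn1 and Serpina1b, at -0.25, -0.13 and -0.095) and overlapped for 3. Over all genes, called ones included, 39.4% did not overlap. The share among uncalled genes alone, which would match these counts, is not given here. With the mean of each gene's probe sets 13 of the list were higher.

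Among 9 measured genes of negative acute phase proteins 2 were called, or 22.2%, close to the 21.0% of all genes, and the median difference was 0.020. The higher one was Igf1, the insulin-like growth factor 1 gene (0.62, SE 0.077, limma adjusted p = 0.000658). The lower one was the coagulation factor gene F12 (-0.26, SE 0.064, limma adjusted p = 0.0184), whose call ended without NZB replicate 2 (0.0549) or NZB replicate 3 (0.0741). Alb and Ttr differed by 0.020 and 0.061. They read close to the highest value of any probe set, 14.9, and whether saturation narrowed these differences was not tested.

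Among 14 receptors and partners of the members 6 were called, or 42.9% beside 21.0% of all genes, and 4 of them were higher in NZB. Fcgr3, an activating Fc receptor gene whose product also binds pentraxins, was 1.82-fold higher (0.86, SE 0.064, limma adjusted p = 3.63e-05). Fpr2, a formyl peptide receptor gene whose product also binds serum amyloid A, was 1.68-fold higher (0.75, SE 0.14, limma adjusted p = 0.00530). Cd14, the endotoxin coreceptor gene, differed by 0.29 (SE 0.076, limma adjusted p = 0.0244) and Fcgr2b, the inhibitory Fc receptor gene, by 0.29 (SE 0.083, limma adjusted p = 0.0332). The call of Cd14 ended without SM replicate 1 (0.0579), SM replicate 2 (0.0873) or NZB replicate 2 (0.0758). That of Fcgr2b ended in 7 of 14 settings (0.0511 to 0.0927), among them the replicate block (0.0579) and leaving out SM replicate 2 (0.0528). Lower in NZB besides Hmox1 was Scarb1, the HDL receptor gene, whose product also takes up serum amyloid A (-1.09, SE 0.093, limma adjusted p = 7.57e-05). The Lcn2 receptor gene Slc22a17 differed by 0.084 (limma adjusted p = 0.455).

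Of 28 measured genes for the cytokine signals and transcription factors that drive the response, 4 were higher in NZB and 7 were lower. That is 39.3% called, beside 21.0% of all genes, with 17 not past the test and a median difference of 0.0045. The widest differences were in lower genes: Nfkbiz, an NF-kappaB cofactor gene (-1.67, SE 0.18, limma adjusted p = 0.000263), Cebpb, a C/EBP factor gene (-1.34, SE 0.13, limma adjusted p = 0.000144), and Il1r1, the interleukin 1 receptor gene (-1.02, SE 0.14, limma adjusted p = 0.00113). Also lower were the interleukin 6 receptor gene Il6ra (-0.91), Jak1 (-0.34), Cebpa (-0.25) and Hnf4a (-0.38). The higher genes were the leukemia inhibitory factor receptor gene Lifr (0.83, SE 0.081, limma adjusted p = 0.000175), the feedback inhibitor gene Socs3 (0.47, SE 0.12, limma adjusted p = 0.0212), Il1b (0.27, SE 0.066, limma adjusted p = 0.0178) and the shared receptor subunit gene Il6st (0.27). Stat3 differed by -0.0019 (limma adjusted p = 0.990), and the Il6 transcript read under the highest Y-linked value in all 6 mice. With the mean of their probe sets Nfkbiz, Il1r1 and Lifr differed by -0.998, -0.49 and 0.45 and were still called. The same setting ended the calls of Jak1 (limma adjusted p = 0.155), Hnf4a (0.136) and Il6st (0.0566). Arrays left out ended that of Socs3 (0.0841 without SM replicate 2, 0.0757 without NZB replicate 2 and 0.0870 without NZB replicate 3). They also ended that of Il1b (0.0746 without SM replicate 2 and 0.0740 without NZB replicate 3). Cebpa lost its call when SM replicate 1, SM replicate 3, NZB replicate 1 or NZB replicate 2 was dropped (0.0587 to 0.0988). The other probe sets of Il6ra (1), Il1r1 (1), Lifr (2) and Hnf4a (3) did not pass. Those of Nfkbiz (2) and Cebpb (1) passed as lower, and those of Socs3 (2) as higher. For Jak1 1 of 2 and for Il6st 2 of 3 passed in the direction of the call.

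**Figure D4:**
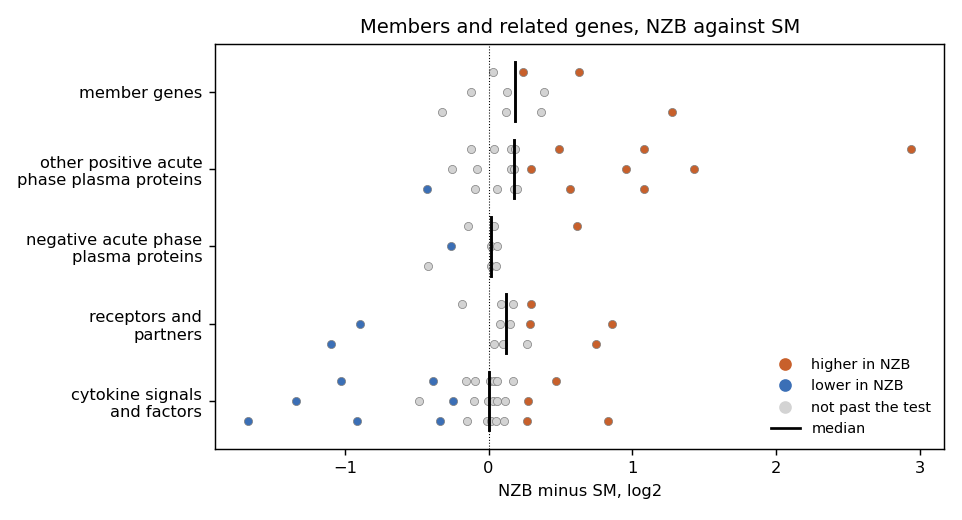
Difference between strains (NZB minus SM, log2, x axis) for the 10 members and the 4 lists of related genes, 1 point per gene, coloured by its call, with the median of each list as a black bar. The rightmost point of the positive acute phase proteins is Orm1 at 2.94, and the leftmost of the cytokine signals and factors is Nfkbiz at -1.67.

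Markers of cells other than hepatocytes also differed between the strains, and Saa3 and Lcn2 can be made by such cells. The share called was 77.8% of macrophage and Kupffer cell markers, 71.4% of B and plasma cell markers and 66.7% of sinusoidal endothelial markers. It was 57.1% of T and NK cell markers and 30.0% of neutrophil markers, beside 28.6% of hepatocyte markers and 21.0% of all genes. Of 9 macrophage and Kupffer cell markers, 6 were higher in NZB and 1 was lower. Their summed level (2 to the power of log2 expression) was 6466 to 7120 in SM and 9573 to 11248 in NZB. Such sums are weighted towards the brightest probe sets of a list and do not measure amounts of cells. The widest difference in this list was in the lysozyme gene Lyz2 (2.32, SE 0.16), while the Kupffer cell marker Clec4f differed by 0.033 (SE 0.086, limma adjusted p = 0.825). Marco was the lower one (-0.66, SE 0.14, limma adjusted p = 0.0102), and its other probe set did not pass. Of 10 neutrophil markers 3 were higher, S100a8 (1.00, SE 0.19), S100a9 (0.51, SE 0.081) and Ngp (0.39, SE 0.065), and the list summed to 1216 to 1269 in SM and 1430 to 1575 in NZB. The other 7 neutrophil markers did not pass, among them Ltf (0.24), Camp (0.086) and Mmp8 (0.085). Lcn2, which neutrophils also store, differed by -0.32 and did not pass either. Of 7 B and plasma cell markers 5 were higher, with sums of 735 to 802 in SM and 6446 to 13057 in NZB, the last of these in NZB replicate 3. The immunoglobulin heavy chain gene Ighm (4.35, SE 0.21) and the joining chain gene Jchain (4.28, SE 0.30) made up most of the NZB sums, while the B cell receptor genes Cd79a (0.18) and Cd79b (0.12) did not pass. With the mean of its probe sets Ighm differed by 0.94, and 7 of its 10 other probe sets did not pass. The call of Mzb1 ended in 6 settings (limma adjusted p of 0.0552 to 0.132), among them leaving out SM replicate 2 (0.0986). Of 7 T and NK cell markers 4 were higher, Cd3d, Cd3e, Cd3g and Nkg7, with sums of 782 to 850 in SM and 891 to 955 in NZB. The calls of Cd3e and Nkg7 both ended without SM replicate 1 (limma adjusted p = 0.05 and 0.0521), SM replicate 2 (0.0871 and 0.124), NZB replicate 1 (0.0741 and 0.0612) or NZB replicate 2 (0.0738 and 0.0876). Nkg7 also lost its call without NZB replicate 3 (0.116), with array medians aligned (0.0557) and with quantile normalization (0.0603). Of 4 adipocyte markers none was called, their sums were 239 to 261 in SM and 254 to 280 in NZB, and Adipoq, Lep and Cidec read under the highest Y-linked value in all arrays. Of 6 sinusoidal endothelial markers 2 were higher and 2 lower. Of 6 stellate cell and fibroblast markers and 5 cholangiocyte markers none was called. The part of all these cells in the differences of Saa3 and Lcn2 was not tested.

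**Figure D5:**
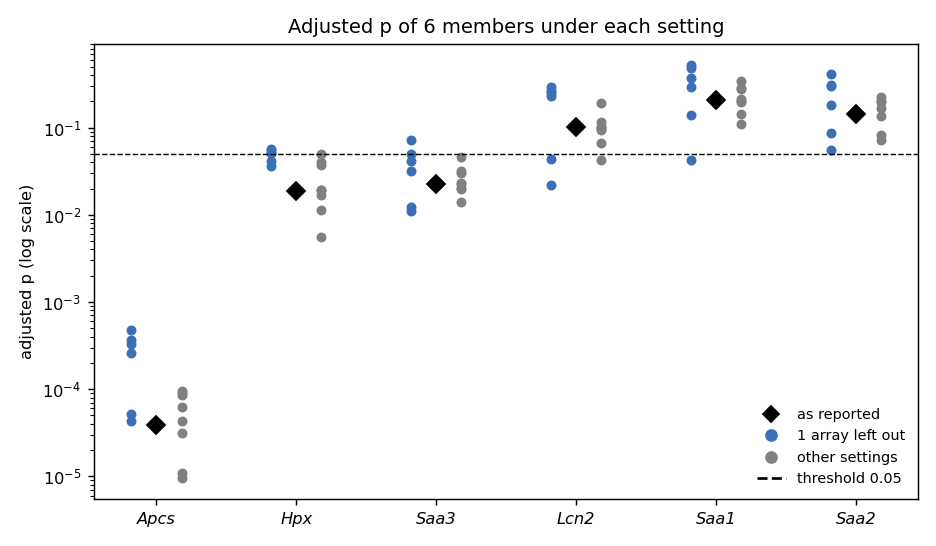
Adjusted p (log scale, y axis) of 6 members as reported (black diamonds), with 1 array left out (blue) and under the other settings of the processing (grey), with the threshold of 0.05 as a dashed line. All points of Apcs lie under the threshold, and those of Hpx and Saa3 lie on both sides of it.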

How the data were processed

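Liver RNA of 6 mice was measured on 1 array each, with Affymetrix-style probe set names. The deposited values are log2 expression made with RMA, per the submitters' processing notes (version: not given in the sources used here). Their range of 3.43 to 14.9 gave the log base, and they were used without rescaling. RMA can narrow differences close to background, and saturation those at the top. All 6 columns matched a mouse by name. Array medians were 6.60 to 6.66.

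Probe sets were named from the platform annotation, with symbols updated by Entrez ID through RefSeq (GRCm38.p6). Of 45037 probe sets, 34945 had 1 gene, 932 several and 9160 none. A gene was represented by its probe set of highest mean over all arrays. NZB minus SM was tested by limma 3.58.1 (R 4.3.3, two-sided moderated test from lmFit and eBayes) over all 18193 genes and again over all probe sets, with Benjamini-Hochberg adjustment and a threshold of 0.05, and the fit was tested on simulated data. With 3 mice against 3, an exact test of 1 gene cannot go below p = 0.1. Only 3 arrays per strain limit precision. The members and lists were chosen with earlier results of these data known. All members are named, as are up to 3 called genes per direction of each related list with the widest differences, and other genes were named after their values were seen. The 14 alternatives were the mean of a gene's probe sets, leaving out cross-binding or dim probe sets, aligned medians, quantile normalization, trended and robust variances, array weights, a replicate block and each array left out. Strain variants under the probes were not analysed here.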

Additional observations from a re-analysis of the deposited data

How the results depend on the processing

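Apcs kept its direction and its call in all 14 alternatives, with limma adjusted p-values of 9.49e-06 to 0.000481. It rests on 1 probe set, whose values the settings that average or drop probe sets could not change. The members called numbered 2 to 4 with 1 array left out and 3 or 4 otherwise. The median difference of the members was 0.13 without probe sets that can bind other transcripts, a setting in which Saa2 had no probe set left, and ranged from 0.16 to 0.23 with 1 array left out. The member probe sets called numbered 1, without SM replicate 3, to 3 with 1 array left out. Hp reversed to -0.0034 with array medians aligned and ranged from -0.034 to 0.073 with 1 array left out, and Saa4 reversed to 0.13 with the mean of its probe sets. The causes of these changes were not tested. Other positive acute phase genes that were higher numbered 13 with the mean of the probe sets against 8, those that were lower 0 to 2 against 1, and negative acute phase genes that were lower 0 to 2 against 1. The receptors that were higher numbered 2 against 4 without SM replicate 2 or NZB replicate 2, and the cytokine signals that were higher 2 against 4 without SM replicate 2 or NZB replicate 3. All genes called numbered 3827, against 2377 without SM replicate 2 and 2383 without NZB replicate 3. Labels give both strains replicates 1, 2 and 3, but same-numbered mice did not deviate together across genes (r = 0.040, -0.072 and 0.050), so the numbers were not taken as pairs. With the replicate block 3 members were called, Hpx at an adjusted p of 0.0405, and Hpx missed the threshold over all probe sets (0.0547). Whether signal near the top of the scale limited Hp and Hpx was not tested.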

Other observations

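The genes beside Apcs were read after its difference was seen, by their order in the RefSeq table. Of the 12 measured genes nearest to it, 6 on each side, 10 missed the threshold and 2 passed as higher in NZB. Beside this and the counts below, 21.0% of all genes tested were called. The higher ones were Ackr1, the Duffy antigen receptor gene for chemokines (0.46, SE 0.084, limma adjusted p = 0.00483), and the olfactory receptor gene Olfr16 (0.23, SE 0.062, limma adjusted p = 0.0274). Both differences were smaller than that of Apcs. Around Saa3 none of the 12 nearest measured genes was called by limma, the other serum amyloid genes among them. At an unadjusted p under 0.05 there were 2, Saa2 and Gtf2h1 (-0.17, SE 0.066). Around Hpx 3 of 12 were higher and 1 was lower, the widest being the ribosomal RNA processing gene Rrp8 (0.79, SE 0.086).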
